A study of Mus musculus with 6 samples.

Results

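This account covers 62 mouse genes of detoxifying enzymes among 18193 genes measured in sorted blood stem and progenitor cells. A gene was taken where a probe set of the array carried its symbol alone and that symbol began with Aldh, Gst (classes a, k, m, o, p, t and z), Mgst, Sult, Fmo or Nqo and a number or letter of that series. They were 20 aldehyde dehydrogenases, 20 soluble glutathione transferases, 3 microsomal glutathione transferases, 13 sulfotransferases, 4 flavin monooxygenases and 2 quinone oxidoreductases. The cells were LSK cells (lineage-negative, Sca1-positive, Kit-positive) of bone marrow from mice 10 to 14 weeks old. Flow cytometry had split them by CD34 and Flt3 into 3 groups, CD34-Flt3-, CD34+Flt3- and, with high Flt3, CD34+Flt3hi. No treatment is named, and each group had 2 Affymetrix arrays. Strain, sex and genotype are not given in the sources used here, and neither is how many mice or sorts stand behind a pair of arrays. The p-values therefore rest on array-to-array spread alone, part of which may be technical. The series asked which expression differences go with the different function of these LSK fractions.

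Aldehyde dehydrogenases oxidise reactive aldehydes to acids. Some of the Aldh1a group, such as Aldh1a1, turn retinaldehyde into retinoic acid, the ligand of the retinoic acid receptors. Glutathione transferases attach the thiol of glutathione to electrophiles, sulfotransferases attach sulfate to phenols and steroids, flavin monooxygenases oxidise nitrogen and sulfur centres, and quinone oxidoreductases reduce quinones. A fluorescent substrate of aldehyde dehydrogenase is widely used to enrich blood stem cells.

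Aldh1a1 and Aldh1a7, its rodent duplicate, lie next to each other on the chromosome, and their start-site windows are shown because both genes fell in this series. Each window runs from 250 bases before to 50 bases after an annotated start, as listed by RefSeq on GRCm38.p6. The Aldh1a1 window is chr19:20601718-20602017 on the plus strand, one of 2 listed for the gene, and the Aldh1a7 window is chr19:20727507-20727806 on the minus strand. Capitals mark the bases without an identical partner in a global alignment of both windows, in which 224 of 318 columns (70.4%) were identical. In the last 150 bases of each window, which hold the start site, 8 bases were unmatched.
Aldh1a1: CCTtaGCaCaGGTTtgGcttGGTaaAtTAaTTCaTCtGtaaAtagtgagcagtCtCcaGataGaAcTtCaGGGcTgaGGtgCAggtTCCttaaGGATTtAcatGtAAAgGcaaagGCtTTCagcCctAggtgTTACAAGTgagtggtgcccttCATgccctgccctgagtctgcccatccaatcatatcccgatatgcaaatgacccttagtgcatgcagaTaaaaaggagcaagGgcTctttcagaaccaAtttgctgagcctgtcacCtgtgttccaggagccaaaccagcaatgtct
Aldh1a7: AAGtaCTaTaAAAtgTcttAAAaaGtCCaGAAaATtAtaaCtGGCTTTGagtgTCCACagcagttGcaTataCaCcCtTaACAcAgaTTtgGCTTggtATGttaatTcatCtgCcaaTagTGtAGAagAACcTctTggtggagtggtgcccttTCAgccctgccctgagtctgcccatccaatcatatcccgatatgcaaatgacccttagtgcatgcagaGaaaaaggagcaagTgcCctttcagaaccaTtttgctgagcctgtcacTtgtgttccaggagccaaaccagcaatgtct
The other Aldh1a1 window (chr19:20492333-20492632) was 50.6% identical to that of Aldh1a7 over 338 columns.

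Gstm5 and Gstm7, mu class transferase genes that are direct neighbours, are shown because Gstm5 fell in this series, Gstm7 did not pass, and both hold the core of the antioxidant response element, the site read by the stress regulator Nrf2. The core was searched as TGACNNNGC on both strands. It was present in 4071 of 32851 RefSeq windows (12.4%) and in 6 of 67 windows of the members (8.96%), which covered 51 of the 62 genes. Member windows on a single chromosome were left out, while the share over all windows had no such limit. Of the 11 genes that passed the threshold in any comparison described below, 10 had a window and Gstm5 was the one with a match. The Gstm5 match starts 42 bases before the start site and reads TGACCACGC, and the Gstm7 match starts 129 bases before it and reads TGACAAAGC. The windows are chr3:107895604-107895903 on the plus strand for Gstm5 and chr3:107931565-107931864 on the minus strand for Gstm7, with the match in capitals.
Gstm5: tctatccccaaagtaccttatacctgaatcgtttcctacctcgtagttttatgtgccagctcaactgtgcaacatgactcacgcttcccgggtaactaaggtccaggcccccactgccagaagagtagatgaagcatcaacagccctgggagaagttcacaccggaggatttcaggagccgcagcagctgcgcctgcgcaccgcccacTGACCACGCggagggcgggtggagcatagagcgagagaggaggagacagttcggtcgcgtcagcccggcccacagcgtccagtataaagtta
Gstm7: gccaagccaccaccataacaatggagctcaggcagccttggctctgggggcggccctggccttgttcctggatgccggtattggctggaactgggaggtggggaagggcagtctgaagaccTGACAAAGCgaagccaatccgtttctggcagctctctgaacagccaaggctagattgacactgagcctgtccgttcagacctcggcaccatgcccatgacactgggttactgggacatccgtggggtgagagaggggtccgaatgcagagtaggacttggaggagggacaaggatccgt
The other members with a match were Aldh1a2, Aldh9a1, Gsta3 and Mgst1. The core of the site read by the aryl hydrocarbon receptor, searched as TTGCGTG on both strands, was in 1.16% of all windows and in 1 member window, that of Sult1d1. These matches describe letters only.

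Values are log2 of the deposited intensities, and each gene was read from its probe set with the highest mean. Levels of different genes are not compared, since probe sets differ in brightness. Median intensity on the 6 arrays was 29.7 to 31.4. A log2 of 4.50 was taken as background, since 90% of 27 unspiked bacterial controls lay at or below it. Between the 2 arrays of a group, members that differed over 2-fold numbered 6 (CD34-Flt3-), 4 (CD34+Flt3-) and 0 (CD34+Flt3hi). Each title also has a code whose meaning is not stated, written here as A, B or C. Replicate 2 of every group had code A, replicate 1 of both CD34+ groups had code B, and CD34-Flt3- replicate 1 had code C, so a difference between replicate 2 arrays is a difference within code A. In sorted bulk cells, fewer cells of a type and less RNA per cell cannot be told apart.

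Kit, Cd34, Flt3 and Ptprc (CD45) were above background in all 3 groups. Cd34 read 8.78 and 9.45 in the CD34-Flt3- group, 10.51 and 10.68, then 11.35 and 11.34 in the others, and Flt3 read 7.65 and 9.16, 8.84 and 9.81, then 12.01 and 11.75, so both followed the sort in their means. Of the markers of mature cells, S100a8, S100a9 and Ltf of neutrophils, Hba-a1 and Slc4a1 of red cells, Cd3g of T cells, Cdh5 of endothelium and Col3a1 of stroma had means below background in every group. Some marker lists nevertheless moved with the sort. The summed linear intensity of the endothelial list (5 of 6 above background, led by Kdr and by Tek, which stem cells also express) was 723 and 458, 366 and 218, and 204 and 159 from the first group to the last. That of the stromal list (5 of 6 above background) was 216 and 282, 185 and 142, and 160 and 136 in the same order. The stem cell list (Procr, Hoxb5, Fgd5 and Mecom) ran from 4036 and 2634 through 981 and 546 to 386 and 383. The T and NK list (3 of 4 above background, led by Nkg7) went the other way, at 310 and 418, 1239 and 1252, and 873 and 902. The mast cell list (6 of 6) was 342 and 319, 684 and 562, and 290 and 190, and the neutrophil and monocyte list (3 of 6, led by Lyz2) 1142 and 1159, 1119 and 1046, and 790 and 731. The B lineage list (5 of 5) was 325 and 320, 218 and 243, and 246 and 250, so it was highest in CD34-Flt3- cells. Over all arrays the hepatocyte list (3 of 3) was 86.8 to 121 and the erythroid list (2 of 4) 60.3 to 93.3. The part of these cell types in the differences below was not tested.

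Of the 62 members, 45 had a group mean above background in at least 1 group and 36 in all 3. The other 17 were below it in every group: 10 of the 13 sulfotransferases, 5 of the 20 soluble glutathione transferases (Gsta2, Gsta3, Gstm6, Gsto2 and Gstt4), Aldh1a2 and Aldh3a1. All 3 microsomal transferases, all 4 flavin monooxygenases and both quinone oxidoreductases were above background in some group. No gene was left out of the test for a low level. Because a gene can pass background through the group in which it is high, the counts below are over all 62.

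Across the whole sort, from CD34-Flt3- to CD34+Flt3hi cells, 11 of the 62 members (17.7%) fell and none rose by limma at an adjusted p under 0.05, where 3.5% of all 18193 genes fell and 2.62% rose. At an unadjusted p under 0.05, 17 members were lower and 0 higher, against 11.6% and 6.77% of all genes. The 11 were 3 aldehyde dehydrogenases (Aldh1a1, Aldh1a7 and Aldh1l1), 7 soluble glutathione transferases (Gstt1, Gstm5, Gsta4, Gstm2, Gstk1, Gstm1 and Gstp3) and the sulfotransferase Sult1a1. In each of the 11 the CD34+Flt3- mean lay between those of the outer groups, which picking genes by the outer groups favours. The share over all genes was not computed. In Aldh1a7, Gstm2 and Gstp3 both CD34+ means lay below background, and in Gstm1 they were nearly equal (8.42 and 8.41). The median difference of the 62 was -0.23 on the log2 scale, against -0.07 over all genes. Leaving out either CD34+Flt3hi array lost most of the 11 calls, and calls over all genes also became far fewer. The 11 differences ran from -6.19 (Aldh1a1) to -0.96 (Gstk1) without replicate 1. Without replicate 2 they ran from -6.93 (Aldh1a1) to -0.69 (Gstp3). In all 11 both CD34-Flt3- arrays lay above both CD34+Flt3hi arrays, so leaving out an array could not change a sign.

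**Figure D1:**
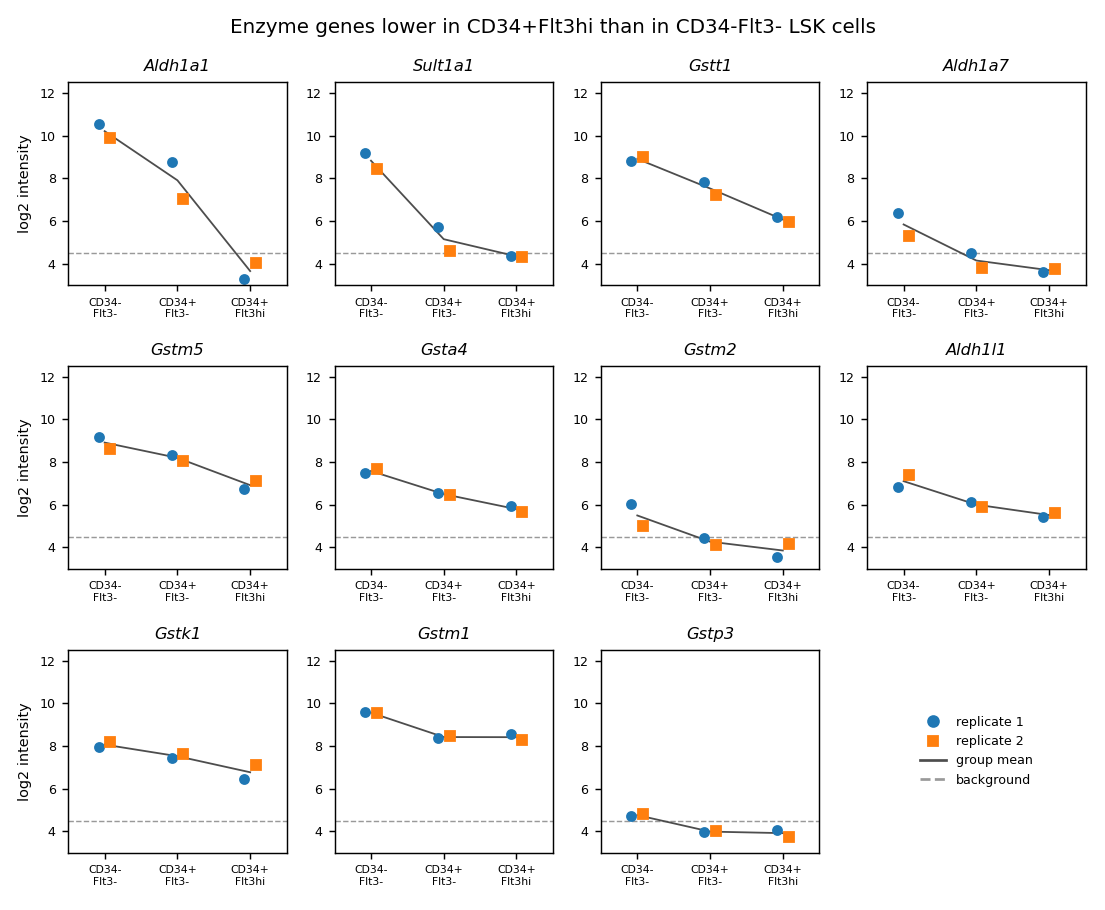
Log2 intensity (y axis) of the 11 genes that were lower in the CD34+Flt3hi than in the CD34-Flt3- group, by sorted group (x axis). Circles are replicate 1, squares replicate 2, the line joins group means and the dashed line is background at 4.50. In each panel both CD34-Flt3- arrays lie above both CD34+Flt3hi arrays. The genes were picked by the test between these groups, so this separation adds no support. Between the same groups 47.9% of all genes did not overlap, in either direction. Aldh1a1 spans the widest range, from 10.54 to 3.28.

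Aldh1a1 (Entrez gene 11668), the cytosolic retinaldehyde dehydrogenase, had the steepest fall of the family. In CD34-Flt3- cells it read 10.54 and 9.89, in CD34+Flt3- cells 8.78 and 7.04, and in CD34+Flt3hi cells 3.28 and 4.02. The groups did not overlap, and only the CD34+Flt3hi arrays lay below background. From CD34-Flt3- to CD34+Flt3hi cells it was at least 52.4-fold lower (log2 difference -6.56 ± 0.52, SE, n = 2; adjusted p = 0.000161; -5.86 within code A). The fall from CD34+Flt3- to CD34+Flt3hi cells was at least 10.6-fold (-4.25 ± 0.52, adjusted p = 0.00641), with -3.01 within code A and -5.50 within code B. That call was lost without CD34+Flt3- replicate 1 (-3.38, adjusted p = 0.0601) or CD34+Flt3hi replicate 1 (-3.88, adjusted p = 0.0674). The 4.94-fold lower level in CD34+Flt3- than in CD34-Flt3- cells (-2.30, adjusted p = 0.0551) missed the threshold.

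Aldh1a7 (Entrez gene 26358) read 6.39 and 5.29, then 4.50 and 3.79, then 3.61 and 3.77 in the same order. Only CD34-Flt3- cells had a mean above background. It was at least 2.53-fold lower in CD34+Flt3- cells (-1.69 ± 0.36, adjusted p = 0.0485, -1.50 within code A) and in CD34+Flt3hi cells (-2.15 ± 0.36, adjusted p = 0.00762, -1.52 within code A). The first of these calls was lost in 10 of 14 other settings, among them without CD34-Flt3- replicate 1 (-1.14, adjusted p = 0.0504) and CD34+Flt3- replicate 2 (-1.34, adjusted p = 0.464). The other was lost without CD34+Flt3hi replicate 1 or 2 (adjusted p = 0.0752 and 0.0584). Probe sequences were not used here, so signal that Aldh1a7 probes may take from Aldh1a1 RNA could not be separated. Aldh1l1 (Entrez gene 107747), which oxidises formyltetrahydrofolate, read 6.81 and 7.40, 6.12 and 5.90, and 5.44 and 5.60. It was 3.01-fold lower in the CD34+Flt3hi than in the CD34-Flt3- group (-1.59 ± 0.30, adjusted p = 0.0117, -1.80 within code A). Its other probe set differed by -0.16, but had a mean below background (4.22) and so little room to show a fall. With the mean of both probe sets the difference was -0.88 (adjusted p = 0.0625), and without CD34+Flt3hi replicate 1 or 2 the call was lost (adjusted p = 0.147 and 0.104).

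The other 17 aldehyde dehydrogenases passed in none of the 3 comparisons, and their differences between CD34+Flt3hi and CD34-Flt3- cells ran from -0.71 to 0.26. Aldh2, the mitochondrial acetaldehyde dehydrogenase, read 12.18 and 12.07, 11.68 and 12.05, and 11.49 and 11.63. Its CD34+Flt3hi arrays lay below its CD34-Flt3- arrays, but the difference of -0.56 (95% interval -0.95 to -0.18) did not pass (adjusted p = 0.0982). Its 4 other probe sets differed by -0.30 to 0.52, the lowest value from a probe set near background (mean 4.62). Aldh9a1, which acts on aminobutyraldehyde, was at 10.19 and 9.86, 9.94 and 9.85, and 10.04 and 10.12, with a difference of 0.05 (-0.42 to 0.52, adjusted p = 0.94). Aldh7a1, an enzyme of lysine breakdown, was at 9.38 and 9.11, 8.85 and 8.49, and 8.61 and 8.45, a difference of -0.71 (-1.27 to -0.16, adjusted p = 0.146). The intervals of Aldh2 and Aldh7a1 lie below 0, while that of Aldh9a1 spans it.

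Of the soluble glutathione transferases, Gstt1 of the theta class had the largest fall. Gstt1 (Entrez gene 14871) read 8.83 and 8.99 in CD34-Flt3- cells, 7.81 and 7.24 in CD34+Flt3- cells, and 6.21 and 5.93 in CD34+Flt3hi cells, with no overlap between groups. It was 7.18-fold lower at the end of the sort (-2.84 ± 0.29, adjusted p = 0.000584, -3.06 within code A), a call kept in all 15 other settings. Its fall to CD34+Flt3- cells was 2.61-fold (-1.39 ± 0.29, adjusted p = 0.0426, -1.76 within code A), and this call was lost in 6 of 15 settings, with adjusted p up to 0.375 without CD34+Flt3- replicate 2. The further difference to CD34+Flt3hi cells was -1.46 (adjusted p = 0.0766). The CD34+Flt3- arrays lay between the outer groups.

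Gstm5 (Entrez gene 14866), a mu class transferase, read 9.20 and 8.64, 8.35 and 8.06, and 6.73 and 7.11, with no overlap. It was 3.99-fold lower in the CD34+Flt3hi than in the CD34-Flt3- group (-2.0 ± 0.29, adjusted p = 0.00364, -1.52 within code A), and the call was lost without CD34+Flt3hi replicate 1 (adjusted p = 0.0668). Gsta4 (Entrez gene 14860), which conjugates the lipid peroxidation product hydroxynonenal, read 7.50 and 7.67, 6.54 and 6.46, and 5.93 and 5.66. It was 3.45-fold lower (-1.79 ± 0.27, adjusted p = 0.0041, -2.01 within code A) and lost the call without CD34+Flt3hi replicate 2 (adjusted p = 0.0809). In both genes the CD34+Flt3- arrays lay between the outer groups.

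Gstm1 (Entrez gene 14862), a major mu class enzyme of liver, read 9.57 and 9.55 in CD34-Flt3- cells, 8.39 and 8.45 in CD34+Flt3- cells, and 8.56 and 8.27 in CD34+Flt3hi cells. It was 2.21-fold lower in CD34+Flt3- than in CD34-Flt3- cells (-1.14 ± 0.23, adjusted p = 0.0413, -1.10 within code A). The CD34+ groups overlapped (-0.01, 95% interval -0.53 to 0.52), but the difference between the steps did not pass (1.14, adjusted p = 0.467 by limma). Over the whole sort the difference was -1.15 (adjusted p = 0.0179). Its 3 other probe sets differed there by -1.17, -0.92 and -0.30. The first call was lost in 8 of 15 settings, with a difference of -0.70 for the mean of all probe sets (adjusted p = 0.139), and the other was lost without either CD34+Flt3hi array (adjusted p = 0.133 and 0.269). The probe set used has an x suffix, which marks probes that may bind related transcripts. How much signal the closely related mu class copies share was not tested.

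Gstk1, Gstm2 and Gstp3 complete the set that fell. Gstk1 (Entrez gene 76263), the kappa class enzyme of mitochondria and peroxisomes, read 7.95 and 8.17, 7.43 and 7.61, and 6.43 and 7.10, and was 2.46-fold lower in the CD34+Flt3hi than in the CD34-Flt3- group (-1.30 ± 0.30, adjusted p = 0.031). Gstm2 (Entrez gene 14863) read 6.02 and 4.99 in CD34-Flt3- cells and lay below background on the other 4 arrays, at least 2-fold lower (-1.64 ± 0.35, adjusted p = 0.0211). Gstp3 (Entrez gene 225884), of the pi class, read 4.72 and 4.80 in CD34-Flt3- cells and below background elsewhere, at least 1.20-fold lower (-0.85 ± 0.21, adjusted p = 0.0408). Within code A these differences were -1.07, -0.84 and -1.04. The calls were lost in 6 of 15 settings for Gstk1, 4 of 14 for Gstm2 and 7 of 14 for Gstp3, in each case without either CD34+Flt3hi array. The difference of Gstm2 was -1.13 without CD34-Flt3- replicate 1 and -2.16 without replicate 2.

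Gstp1, the pi class enzyme, and Gsto1, the omega class enzyme, passed in no comparison. Gstp1 (Entrez gene 14870) read 10.72 and 10.85, 10.89 and 10.68, and 10.81 and 10.96, and its difference over the sort was 0.11 (95% interval -0.31 to 0.52, adjusted p = 0.832). Gsto1 (Entrez gene 14873) read 10.45 and 10.48, 10.43 and 10.62, and 10.82 and 10.46, a difference of 0.18 (-0.28 to 0.63, adjusted p = 0.727). In both genes the arrays of the 3 groups overlapped. Gstm4 was 1.88-fold lower without passing (-0.91, adjusted p = 0.0777), and the remaining soluble transferases had differences of -0.86 (Gstt3) to 0.48 (Gstz1).

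**Figure D2:**
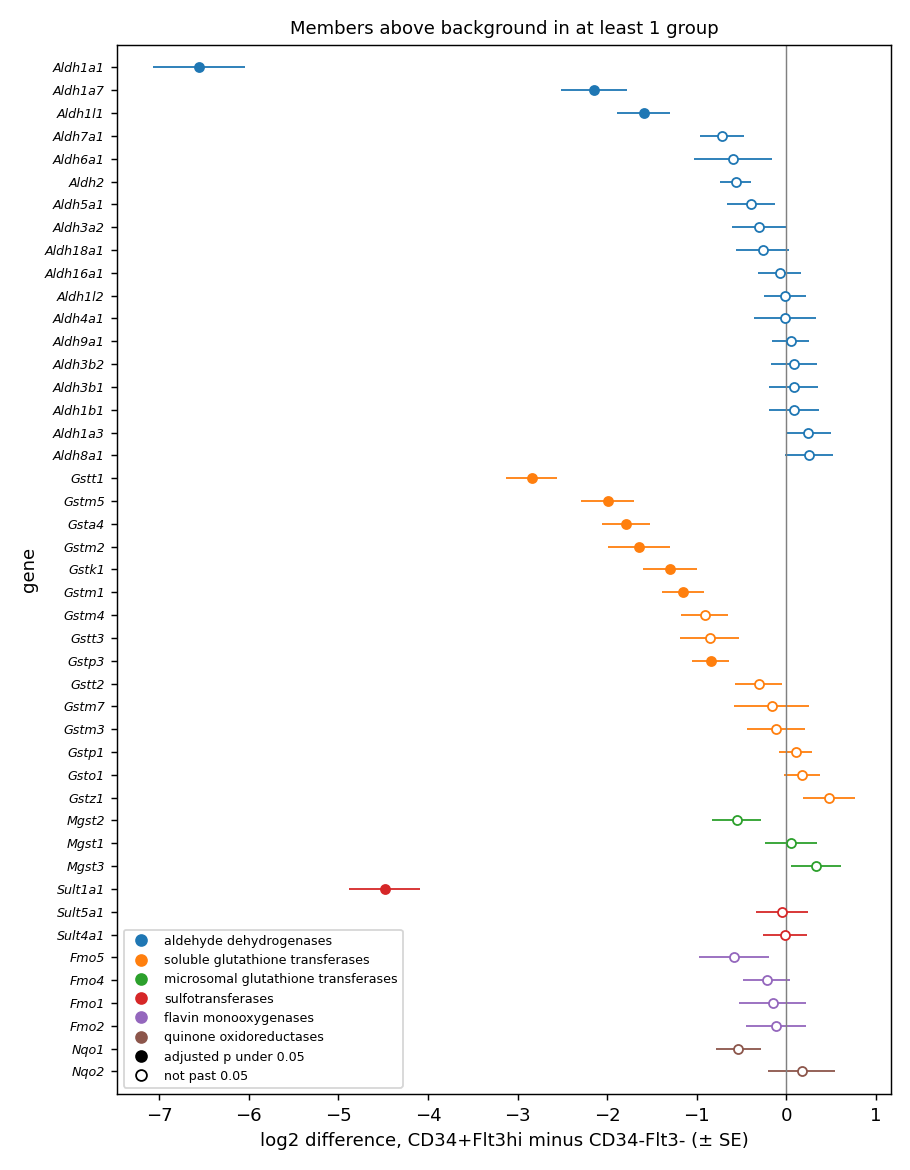
Log2 difference between CD34+Flt3hi and CD34-Flt3- cells (x axis, bars show the SE) for the 45 members above background in at least 1 group (y axis), ordered by enzyme class and size. Filled points passed an adjusted p of 0.05. The 11 filled points all lie left of 0, from -6.56 for Aldh1a1 to -0.85 for Gstp3, and the open points run from -0.91 to 0.48.

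Several Gst genes lie next to each other. In RefSeq order the mu genes are Gstm5, Gstm7, Gstm6, Gstm3, Gstm2, Gstm1 and Gstm4, with no other protein-coding gene between them. Of these 7, Gstm5, Gstm2 and Gstm1 fell over the whole sort. Gstm4 (-0.91) did not pass, and Gstm6 was below background throughout. Gstm7 (-0.16, 5.33 and 6.39 in CD34-Flt3- against 6.10 and 5.29 in CD34+Flt3hi cells) and Gstm3 (-0.11) had overlapping groups. Within code A Gstm7 differed by -1.09, while its other probe set differed by 0.43 over the sort. Of the 4 theta genes, in the order Gstt3, Gstt1, Gstt4 and Gstt2, Gstt1 fell, Gstt3 (-0.86, adjusted p = 0.191) and Gstt2 (-0.31, adjusted p = 0.609) did not pass, and Gstt4 was below background. Aldh1a1 and Aldh1a7 are neighbours and both fell. Whether neighbours differ from each other was not tested.

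**Figure D3:**
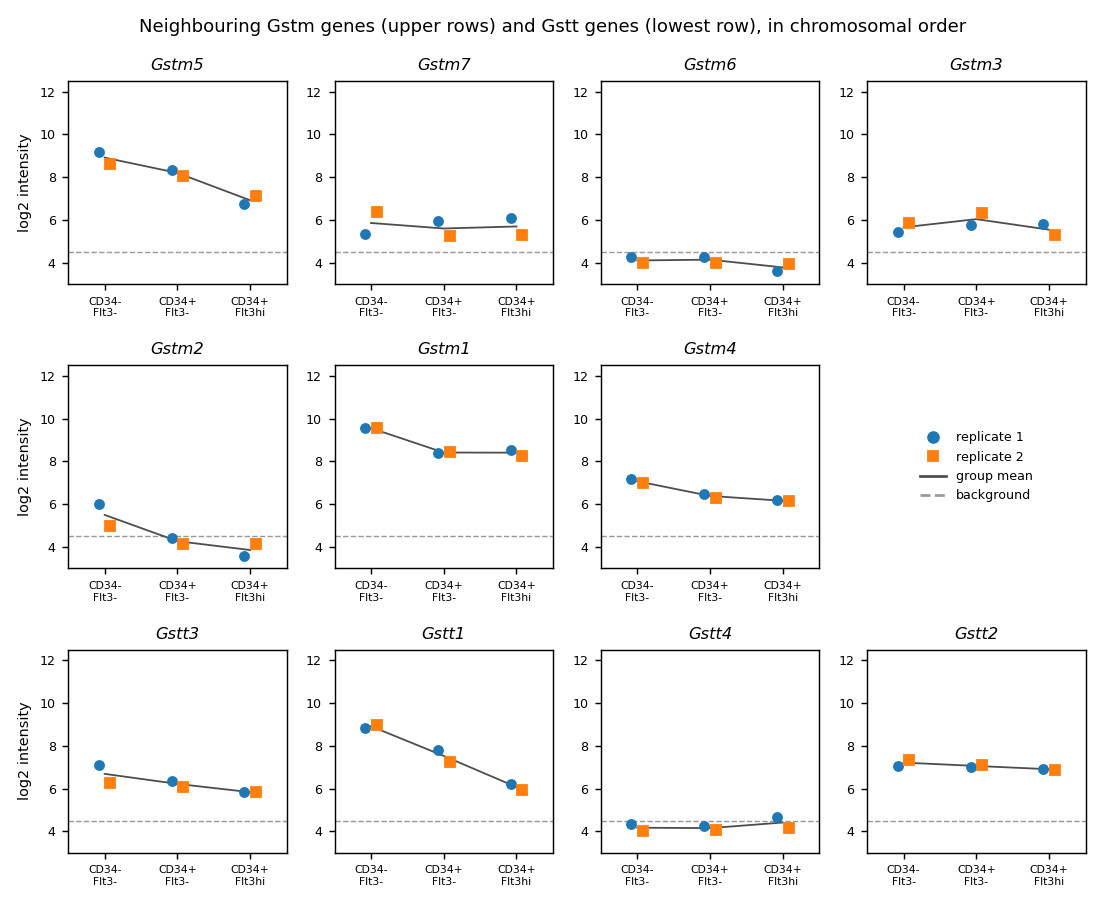
Log2 intensity (y axis) by sorted group (x axis) of the 7 Gstm genes and 4 Gstt genes in chromosomal order, with circles for replicate 1, squares for replicate 2, a line through the group means and background dashed. Gstm5, Gstm2, Gstm1 and Gstt1, which passed the test, have both CD34-Flt3- points above both CD34+Flt3hi points. So have Gstm4, Gstt3, Gstt2 and Gstm6, the last of them below background, while the points of Gstm7, Gstm3 and Gstt4 overlap. Such separation is common with 2 arrays a group. Of all 18193 genes, 47.9% had no overlap between these groups in either direction, 5290 of them lower in CD34+Flt3hi cells.

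The 3 microsomal transferases, membrane proteins of which Mgst1 also reduces lipid peroxides, did not pass in any comparison. Mgst2, which can make leukotriene C, read 7.36 and 7.76 in CD34-Flt3- cells, 6.39 and 6.57 in CD34+Flt3- cells and 6.96 and 7.05 in CD34+Flt3hi cells, so the middle group lay lowest. Its difference at the first of these steps was -1.08 (adjusted p = 0.0823) and at the next 0.52 (adjusted p = 0.822). Mgst1 (7.43 and 7.39, 7.10 and 6.91, 7.76 and 7.17) and Mgst3 (5.87 and 5.58, 5.76 and 6.18, 6.0 and 6.11) differed by 0.06 and 0.34 over the whole sort (adjusted p = 0.951 and 0.602).

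Sult1a1 (Entrez gene 20887), the phenol sulfotransferase, was the one sulfotransferase of 13 that passed. In CD34-Flt3- cells it read 9.20 and 8.45, in CD34+Flt3- cells 5.71 and 4.58, and in CD34+Flt3hi cells 4.37 and 4.32. Both CD34-Flt3- arrays stood far above the other 4, and the CD34+Flt3hi arrays lay below background. The fall to CD34+Flt3- cells was 12.8-fold (-3.68 ± 0.40, adjusted p = 0.00656, -3.87 within code A), and the level in CD34+Flt3hi cells was at least 20.1-fold lower than in CD34-Flt3- cells (-4.48 ± 0.40, adjusted p = 0.000344, -4.13 within code A). The first of these calls was lost without CD34+Flt3- replicate 2 (-3.12, adjusted p = 0.113). From CD34+Flt3- to CD34+Flt3hi cells the difference of -0.80 did not pass (adjusted p = 0.787, -0.26 within code A and -1.34 within code B). Sult5a1 and Sult4a1, the other sulfotransferases above background, differed by -0.05 and -0.01 over the whole sort (adjusted p = 0.957 and 0.989).

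None of the flavin monooxygenases or quinone oxidoreductases passed. Fmo2 read 7.69 and 8.62, 8.30 and 8.83, and 8.07 and 8.01, with overlapping outer groups (-0.12, 95% interval -0.87 to 0.64). Fmo5 was high on 1 array, CD34-Flt3- replicate 1 at 6.55, against 5.17 to 5.46 on the other 5, and its difference of -0.59 (adjusted p = 0.491) passed only when replicate 2 of that group was left out. Fmo1 lay near background, at 3.94 to 5.34. Nqo1, the quinone reductase used as a readout of Nrf2, read 4.89 and 5.05, 5.03 and 4.57, and 4.33 and 4.54, a difference of -0.53 (-1.09 to 0.02, adjusted p = 0.296). Nqo2 read 7.15 and 6.13, 6.94 and 6.45, and 7.01 and 6.62, with all groups overlapping.

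Between CD34-Flt3- and CD34+Flt3- cells, 4 members fell (Sult1a1, Aldh1a7, Gstt1 and Gstm1) and none rose, 6.45% against 1.33% of all genes that fell and 0.77% that rose. At an unadjusted p under 0.05 there were 14 lower and 0 higher, against 12.1% and 4.81% of all genes, and the median difference was -0.16, against -0.10 over all genes. Between CD34+Flt3- and CD34+Flt3hi cells, 1 member (Aldh1a1) fell and none rose, against 0.225% and 0.385% of all genes, with a median of -0.10 against 0.03. Unadjusted, 6 were lower and 0 higher, against 2.58% and 4.17% of all genes. The calls of the first step numbered 0 without CD34+Flt3- replicate 2, 2 without its replicate 1, 1 without either CD34+Flt3hi array and 7 without CD34-Flt3- replicate 2. Those of the next step numbered 0 without replicate 1 of CD34+Flt3- or of CD34+Flt3hi cells, and 3 without either CD34-Flt3- array. With title codes as a fixed replicate block, CD34-Flt3- cells rest on replicate 2 alone. Fewer residual degrees of freedom remain in that fit, so its p-values lean more on the prior estimate of the spread.

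**Figure D4:**
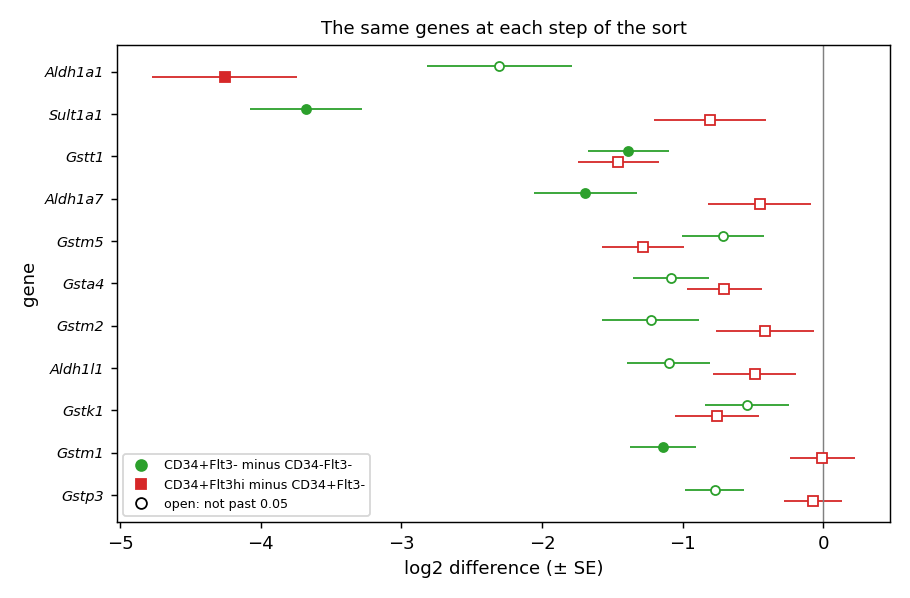
Log2 difference (x axis, bars show the SE) at both steps of the sort for the 11 genes (y axis). Circles are CD34+Flt3- minus CD34-Flt3- cells, squares CD34+Flt3hi minus CD34+Flt3- cells, and filled points passed an adjusted p of 0.05. Sult1a1 reads -3.68 and -0.80 and Aldh1a1 -2.30 and -4.25, with the CD34+Flt3hi arrays of both below background.

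The difference between the steps did not pass for Sult1a1 or Aldh1a1 (Sult1a1 2.88, adjusted p = 0.31; Aldh1a1 -1.95, adjusted p = 0.544). Both genes end below background in CD34+Flt3hi cells, so their differences at the next step are limited by it. The difference between the steps passed for none of the 62 members, where 0.0275% of all genes passed by limma. At an unadjusted p under 0.05 there were 3 members with the more negative difference at the first step and 1 with it at the next, against 6.5% and 2.8% of all genes, so the share was no higher than over all genes. The CD34+Flt3- arrays enter both steps with opposite sign, so the steps are not independent. A moderated F over the 3 groups passed for 9 members (14.5%, against 4.67% of all genes), the 11 above without Gstk1 (adjusted p = 0.0792) and Gstp3 (adjusted p = 0.0693).

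Among 22 measured genes of the retinoid pathway (25 listed), 2 rose and 4 fell from CD34-Flt3- to CD34+Flt3hi cells, against 2.62% and 3.5% of all genes. Dhrs3, which reduces retinaldehyde to retinol, read 6.11 and 6.61, 7.11 and 7.12, and 8.85 and 8.61 (2.37 ± 0.28 over the sort, adjusted p = 0.0013), and it rose between the CD34+ groups (1.62, adjusted p = 0.0381). Cyp26b1, which degrades retinoic acid, read 6.48 and 6.31, 4.78 and 4.58, and 4.66 and 4.36, and it fell at the first step (-1.72 ± 0.25, adjusted p = 0.0172) and over the sort (-1.89, adjusted p = 0.00248). The retinol dehydrogenase gene Rdh5 (-1.27, adjusted p = 0.0128) and the receptor genes Rarg (-1.45, adjusted p = 0.0226) and Rarb (-1.73, adjusted p = 0.0246) also fell over the sort. Rdh5 and Rarb had CD34+Flt3hi means below background (4.34 and 4.04). Fabp5, a fatty acid and retinoic acid carrier, rose at the first step (1.38, adjusted p = 0.0197) and over the sort (1.05, adjusted p = 0.0233). The median of the list was -0.07 and 0.05 at the steps and -0.01 over the sort, against -0.10, 0.03 and -0.07 over all genes.

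Of 31 measured genes of glutathione supply and Nrf2 targets (35 listed), 1 fell and 0 rose, a share near the 3.5% of all genes that fell over the sort. It was Gpx8, an endoplasmic reticulum peroxidase, at the first step (-0.98, adjusted p = 0.0421) and over the sort (-1.22, adjusted p = 0.00677). Both CD34+ means of Gpx8 lay below background (4.07 and 3.84), so its differences are limited by it. The median of this list was -0.11 and -0.04 at the steps and -0.20 over the sort, against -0.10, 0.03 and -0.07 over all genes. Of 16 genes of sulfate donor supply and sulfate removal (17 listed), none passed at either step, and over the sort Arsb, a lysosomal sulfatase, rose (2.01, adjusted p = 0.00684) and Tpst2, a tyrosyl protein sulfotransferase, fell (-1.09, adjusted p = 0.0285). Among all genes 2.62% rose and 3.5% fell over the sort. Of 31 other aldehyde, alcohol and xenobiotic enzymes and their regulators (37 listed), 3 fell at the first step, against 1.33% of all genes. In this list 0 passed at the next step and 4 fell over the sort, against the same 3.5%. Cbr3, a carbonyl reductase, fell over the sort (-2.94, adjusted p = 0.000548), as did the xenobiotic receptor gene Ahr (-2.26, adjusted p = 0.00536) and the epoxide hydrolase genes Ephx1 (-1.67, adjusted p = 0.00761) and Ephx2 (-1.02, adjusted p = 0.0244). Cbr3 read 7.59 and 7.10 in CD34-Flt3- cells against 5.22 and 5.21, and 4.66 and 4.16, without overlap. The CD34+Flt3hi means of Cbr3 and Ephx2 lay below background (4.41 and 4.14). The medians of the sulfate and xenobiotic lists over the sort were -0.27 and -0.15, against -0.07 over all genes.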

How the data were processed

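RNA of sorted LSK cells had been amplified in 2 rounds, labelled with biotin and hybridised, per the labels' protocols. The deposited values were taken as linear signal intensities per probe set from the robust multi-array average (RMA), per the submitters' processing notes, which give no version. The linear scale was inferred from the values, and log2 was taken. Of 45101 probe sets, 34945 had 1 gene symbol, 932 several and 9160 none, leaving out 64 controls. Those with 1 symbol gave 18193 genes, taking the probe set with the highest mean, and symbols were updated by gene identifier (99.4% matched).

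One limma model (version 3.58.1, R 4.3.3) covered the 6 arrays, with an intensity trend, 3 residual and 6.86 prior degrees of freedom, two-sided p-values and Benjamini-Hochberg adjustment over all genes. Precision is limited by having 2 arrays a group. An exact permutation test of 2 against 2 arrays cannot go below p = 0.333, so none is reported. Where a group mean lay below background, its arrays under that level were raised to it for the fold, which is then written as "at least". The pipeline was tested on simulated data. The members and lists were chosen with earlier results of these data known. Named were members that passed any test, the 3 brightest of each class and Aldh1a1, Aldh1a7, Aldh2, Sult1a1 and Nqo1, with up to 4 genes a list past the threshold, by smallest p. Gstm3, Gstm4, Gstm7, Gstz1, the other Gstt genes, Rarg and Rarb were named outside this rule after their values were seen. Alternatives were title codes as blocks, no trend, other scalings, dim genes left out, other probe set rules, the 4 arrays compared, a threshold of 0.10 and leaving out each array. Figures used matplotlib 3.10.9 in Python 3.11.15.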

Additional observations from a re-analysis of the deposited data

How the results depend on the processing

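No call of a single member reversed in any of the settings run, but this outcome was largely fixed in advance. In every call the arrays of the compared groups did not overlap, so leaving out an array could not reverse it. The settings without trend and with the 4 arrays compared leave the difference itself unchanged. Over the whole sort, the count of 11 was 8 to 14 in the settings that left out no single array, and 4 to 12 when each array was left out. Its calls for Aldh1a1, Gstt1 and Sult1a1 passed in all 15 settings. At the first step the count of 4 became 11 with title codes as a fixed replicate block, 2 with the mean of all probe sets, 2 without x and s probe sets, 1 with the 4 arrays compared, 9 at an adjusted p under 0.10, and 0 to 7 when each array was left out. At the next step the count of 1 became 3 with the fixed and 2 with the random block of title codes, 3 with quantile normalization repeated, 3 with the 4 arrays compared, 2 at an adjusted p under 0.10, and 0 to 3 when each array was left out. The causes of these shifts were not tested, beyond the fewer arrays or the other threshold of some settings. In the fixed block CD34-Flt3- cells rest on replicate 2 alone. That fit also leaves fewer residual degrees of freedom than the main fit, so its p-values lean more on the prior estimate of the spread. Its higher counts are therefore not read as a gain. Over all genes, the difference of replicate 2 minus replicate 1 correlated at 0.07 between the CD34+ groups, which share codes A and B, at 0.31 between CD34-Flt3- and CD34+Flt3- and at 0.06 between the outer groups. Not every correlation was over 0.1, and the codes were not taken as pairs. Over all genes the first step had 382 calls, against 1579 with the fixed block, 498 with quantile normalization repeated and 0 without CD34+Flt3- replicate 2. Against the highest control probe set, a log2 of 5.35, 37 members in place of 45 were above background. Members near a log2 of 4.50, such as Gstp3 and most sulfotransferases, have little room to show a fall.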

Other observations

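Probe sets that name several genes were left out of the comparisons, and 3 of them include genes of these families. A probe set shared by Aldh3b2 and Aldh3b3 read 4.46 and 4.96 in CD34-Flt3-, 5.36 and 4.85 in CD34+Flt3- and 4.56 and 5.01 in CD34+Flt3hi cells. Another one of the same pair had a mean of 4.26, and that of Gsta1, Gsta2 and Gm3776 had a mean of 4.15, both below background.

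The probe sets of Aldh2 did not move together. Between CD34-Flt3- and CD34+Flt3- cells the brightest differed by -0.26, and the others by 0.73, 0.20, 0.92 and -0.58. The last of these came from a probe set near background (mean 4.62). Those of Aldh9a1 (-0.13 and 0.33) also differed in sign there. Those of Nqo2 differed by 0.05, 0.40 and -0.66, the last from a probe set below background on every array (mean 3.58).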
